A study of Drosophila melanogaster with 6 samples.

Results

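The vacuolar ATPase (V-ATPase) genes of the fly were taken as all genes whose symbol on the array starts with Vha, with the brightest probe set of each gene over the 6 arrays. This gave 31 genes on 32 probe sets, of 11982 genes with a probe set of 1 symbol. The reference table of Release 6 holds 33 such genes. The catalytic A subunit genes Vha68-1 and Vha68-2 have no probe set of their own in the annotation used and were not analysed here. The genes were split into 13 broadly expressed subunits and 18 paralogues listed as restricted to some tissues, from general knowledge of the family. For 4 of the 18, VhaM9.7-a, VhaM9.7-c, Vha100-5 and Vha36-3, the tissue is uncertain.

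RNA of whole bodies of adult w1118 females was hybridised to Affymetrix Drosophila arrays. The high-fat diet (HFD) group was kept for 1 week on food with coconut oil at 20% weight per volume, and the regular diet (RD) group for 1 week on Jazz-Mix food. Both groups were in normal oxygen, entered the diets at an age of 3 to 5 days and were frozen at 10 to 12 days, with 3 arrays per diet. Nothing states that the arrays of a diet came from separately reared flies, and the p-values rest on the spread among these arrays, which may be technical.

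The V-ATPase is a rotary proton pump that uses ATP to acidify lysosomes, endosomes and secretory and synaptic vesicles, and that drives ion transport across the plasma membrane of epithelia such as the Malpighian tubule. Its cytosolic V1 sector holds the catalytic subunits A and B, a central stalk of D and F, peripheral stalks of C, E and G, and the regulatory subunit H. Its membrane-bound V0 sector holds the large subunit a, a ring of proteolipids c and c'', the subunit d that couples ring and stalk, and the small subunit e. Drosophila carries several gene copies for many positions, usually 1 copy used in most tissues and others used in few.

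Of the 13 broadly expressed subunits, 1 was higher on HFD and none was lower, while 4 paralogues were higher and none was lower. The broadly expressed subunits differed between diets by -0.11 to 0.18 on the log2 scale, HFD minus RD. The 10 tested paralogues differed by -0.24 to 0.76, and 4 of the 10 were negative. The 4 paralogues that rose did so by 0.34 to 0.76, a range set by picking those that passed. The 5 genes that rose were the accessory subunits VhaAC45RP and VhaAC45, the e subunit paralogue VhaM9.7-a, the D subunit paralogue Vha36-3 and the a subunit Vha100-1. A gene was called where the limma test, adjusted over all 11261 probe sets tested (Benjamini-Hochberg), gave a p under 0.05. Of the 4 paralogues that rose, 2 are among those of uncertain tissue, and without these 4 genes 2 of 6 tested paralogues were higher, a count added after the values were seen. At an unadjusted p under 0.05 (limma), 6 members were higher and 1 was lower, of 23 tested, where 35.5% of all tested probe sets passed, 21.0% higher and 14.6% lower. By the adjusted rule 12.9% of the tested probe sets were higher on HFD, 6.63% lower and 19.5% called in all. Of the 23 members tested, 8 had arrays that did not overlap between diets, 7 with HFD above and 1 with HFD below, where 42.0% of all tested probe sets did not overlap. Fold changes are differences of log2(signal + 1), given ± their standard error, and signals are linear MAS5 signals given as mean ± SD (n = 3 arrays per diet). The number of arrays limits their precision. In whole-body RNA, a change in the number of cells of a type and a change in RNA per cell cannot be told apart, in either direction.

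**Figure D1:**
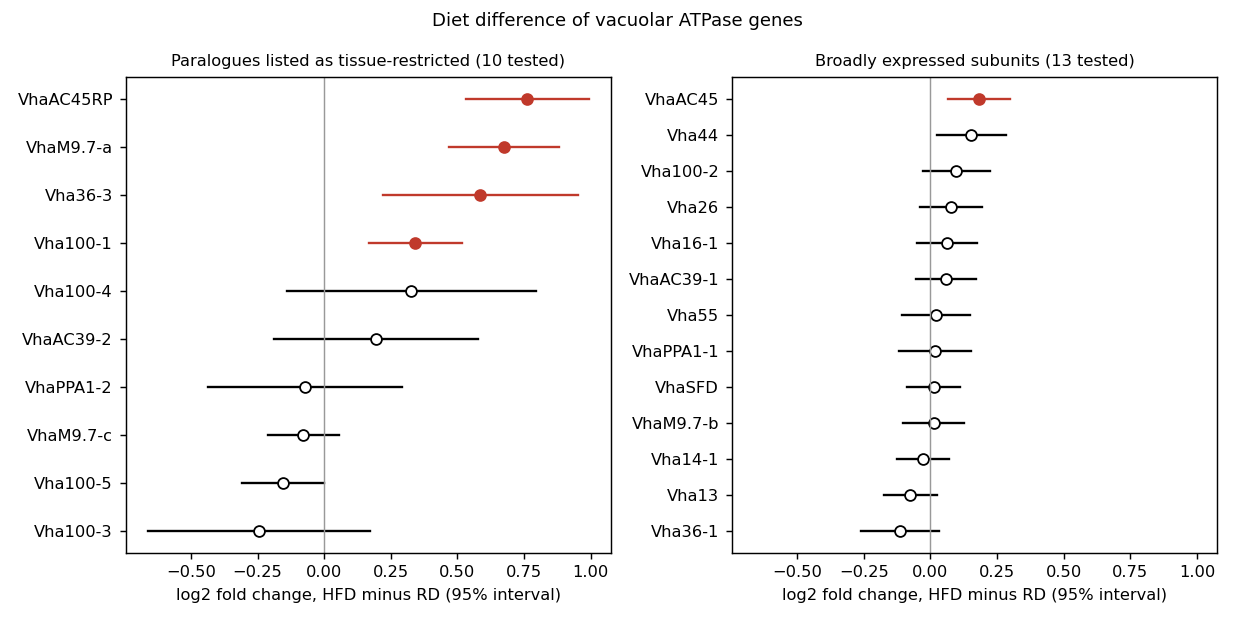
Log2 fold change (HFD minus RD, x axis) of the 10 tested paralogues listed as tissue-restricted (left) and the 13 broadly expressed subunits (right). Points are limma estimates, bars their 95% intervals, and filled red points passed an adjusted p of 0.05. The filled points lie between 0.18 and 0.76, all 10 tested paralogues between -0.24 and 0.76, and the broadly expressed subunits between -0.11 and 0.18.

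All 13 broadly expressed subunits passed the filter on dim probe sets, with mean signals of 2302 to 7910. The filter kept probe sets whose mean log2 signal lay above the 40th percentile, which corresponds to a signal of 27.9. Signals of different probe sets are not on a common scale of RNA amount, so no order of abundance is drawn from them. The median log2 fold change of the 13 was 0.021, beside 0.0083 for all tested probe sets. Their 95% intervals reached from -0.26 at the lowest to 0.30 at the highest, and 11 of the 13 intervals included 0. Of 589 tested probe sets with mean signals in the same range, 9.17% were higher and 18.2% lower. The 10 tested paralogues had mean signals of 30.3 to 989, below that range, and a median standard error of 0.13 against 0.050. Class and signal level therefore cannot be told apart, and no share at matched signal was taken for the paralogues.

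Among the V1 subunits, Vha55, the B subunit at the catalytic interface, had signals of 3771, 3737 and 3908 on the HFD arrays, against 4033, 3552 and 3683 on the RD arrays. The diets overlapped, and its log2 fold change was 0.021 ± 0.056 (limma, adjusted p = 0.814). For the central stalk, Vha36-1 (subunit D) had 2752 ± 175 in HFD and 2978 ± 173 in RD (-0.11 ± 0.064). Vha14-1 (subunit F) had 3015 ± 75.2 in HFD and 3074 ± 27.0 in RD. Neither gene of the central stalk passed the test, and both had overlapping diets.

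The peripheral stalk genes were not called either. Vha44, the C subunit that bridges the stalks to the membrane sector, came nearest to a call, with signals of 2414, 2341 and 2515 in HFD, against 2308, 2075 and 2159 in RD. Its HFD arrays all lay above its RD arrays, as did those of 23.2% of all tested probe sets, and its log2 fold change was 0.15 ± 0.056 (limma, adjusted p = 0.0925). Vha26 (subunit E) had 5794, 5839 and 6434 in HFD, against 5677, 5708 and 5739 in RD. It too did not overlap between diets and did not pass (0.076 ± 0.050, limma, adjusted p = 0.312). Vha13 (subunit G) had 5774 ± 170 in HFD and 6082 ± 159 in RD, and VhaSFD, the H subunit that keeps free V1 from splitting ATP, had 3260 ± 49.8 in HFD and 3233 ± 84.6 in RD. Both overlapped between diets and missed the threshold.

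The broadly expressed V0 subunits lay within a narrow band, with log2 fold changes of 0.011 to 0.097 and no call. Vha100-2, the a subunit that carries the proton half-channels, had 2838, 2874 and 3049 in HFD, against 2579, 2774 and 2844 in RD. The diets overlapped (0.097 ± 0.055, limma, adjusted p = 0.241). Vha16-1, the c subunit of the proteolipid ring, had 7753, 7938 and 8554 in HFD, against 7892, 7790 and 7534 in RD. Vha16-1 is the only member with a second probe set, which had 4512 ± 209 in HFD and 4667 ± 209 in RD. The sign of the fold change differed between its probe sets, at 0.062 and -0.049, and neither passed. VhaPPA1-1 (subunit c'') was at 0.018 ± 0.058, VhaAC39-1 (subunit d) at 0.057 ± 0.049 and VhaM9.7-b (subunit e) at 0.011 ± 0.050. Signals of VhaPPA1-1, VhaAC39-1 and VhaM9.7-b all overlapped between diets.

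The accessory subunit gene VhaAC45, whose product guides assembly and sorting of the pump, was the 1 broadly expressed member that rose. Its signals were 3605, 3726 and 3970 in HFD, against 3408, 3258 and 3279 in RD. The diets did not overlap, and the gene rose 1.14-fold (log2 fold change 0.18 ± 0.050, limma, adjusted p = 0.0385). This call did not hold without the filter, without the intensity trend in the test, or with each array centred on its median, where the log2 fold change was -0.025, and adjusted p was 0.0869, 0.0999, 0.104 and 0.125 without HFD array 3, RD array 2, HFD array 2 and RD array 3. The prorenin receptor homologue ATP6AP2, an accessory protein formerly named VhaM8.9 and outside the symbol rule, had 3128 ± 125 in HFD and 3203 ± 145 in RD, and did not pass (-0.034 ± 0.053, limma, adjusted p = 0.669).

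HFD array 3 gave the highest of the 6 signals for 10 of the 13 broadly expressed subunits and for 27.5% of all tested probe sets. That array also had the highest trimmed mean signal, 342 against 326 to 334 on the other five arrays. Fold changes were positive for 10 of the 13, and for 51.3% of all tested probe sets. Without that array the median of the 13 was 0.0014, with no call, beside -0.0081 for all tested probe sets. In that fit 9.56% of all tested probe sets were called higher and 5.25% lower. None of the 13 was called without HFD array 2, RD array 2 or RD array 3 either. There 8.1%, 8.7% and 6.78% of all tested probe sets were called higher, and 3%, 3.18% and 2.18% lower. With only 13 genes, no call lies near these shares.

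Of the 18 paralogues listed as tissue-restricted, 10 passed the filter and 8 did not, where its setting removed 7508 of all 18769 probe sets. The 8 dim genes were Vha36-2, Vha68-3, Vha14-2, Vha16-2, Vha16-3, Vha16-4, Vha16-5 and VhaM9.7-d, and 47 of their 48 signals lay below the filter level. All 4 proteolipid c paralogues of Vha16-1 were in this group. Some of these paralogues, such as Vha68-3, are known chiefly from the testis, and 14 of 18 testis markers were also under the filter in these females. Whether use in the testis accounts for the low signals of the paralogues was not tested. The dim genes were not tested, and no fold is given. Vha14-2, an F subunit paralogue, had 29.8, 27.3 and 15.04 in HFD, against 15.9, 12.2 and 11.5 in RD, with overlap. Vha16-4 had 12.97, 11.5 and 10.8 in HFD, against 18.6, 16.01 and 16.6 in RD, without overlap. Fitted without the filter, neither passed.

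The 10 tested paralogues had log2 fold changes of -0.24 to 0.76, with a median of 0.26. This median covers only genes that passed the filter. VhaAC45RP, a relative of VhaAC45 that in the fly is made in neurons and serves the acidification of synaptic vesicles, rose most among the V-ATPase genes tested. Its signals were 261, 260 and 283 in HFD, against 174, 156 and 144 in RD. The diets were far apart, and the gene rose 1.70-fold (0.76 ± 0.10, limma, adjusted p = 0.00325). VhaM9.7-a, a paralogue of the e subunit, had 229, 225 and 241 in HFD, against 145, 137 and 152 in RD. It rose 1.59-fold without overlap (0.67 ± 0.089, limma, adjusted p = 0.00327). Both calls held with each of the 6 arrays left out in turn, with median centring and with quantile normalization. With the 3'/5' signal ratio of control transcripts in the model, VhaAC45RP was at 0.64 (limma, adjusted p = 0.0592) and VhaM9.7-a at 0.62 (limma, adjusted p = 0.0568), where 1.89% of all probe sets were called higher and 0.471% lower.

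**Figure D2:**
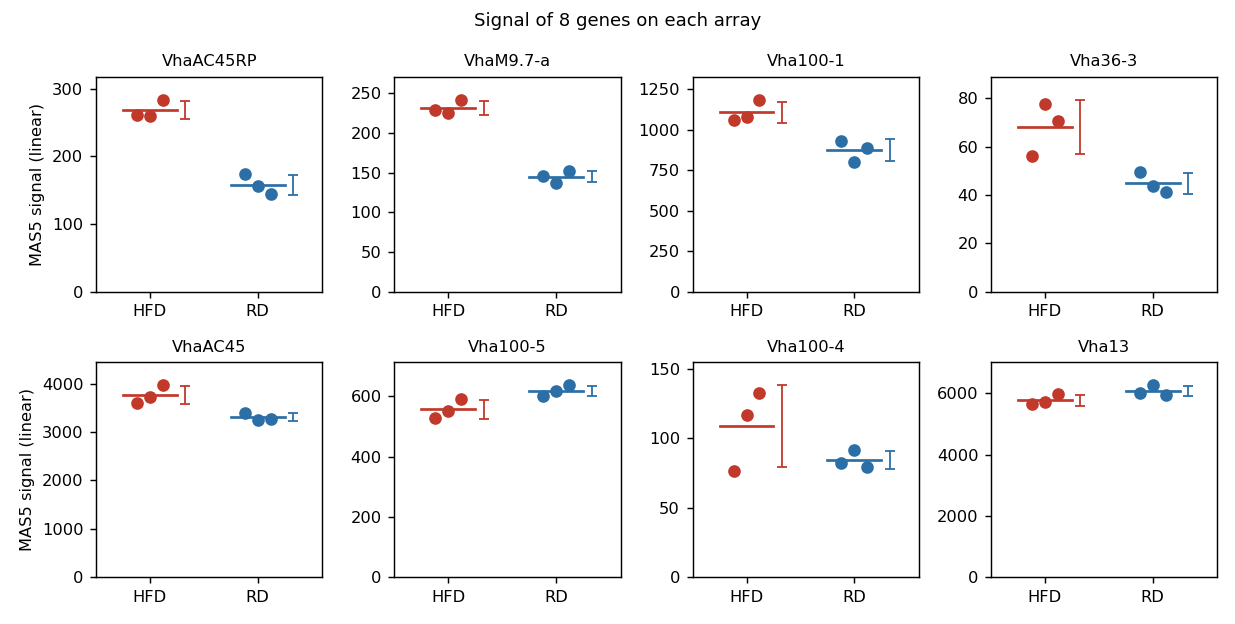
Linear MAS5 signal (y axis, from 0) of 8 V-ATPase genes on each HFD array (red, left) and RD array (blue, right), with group means as lines and SD (n = 3) as bars beside the points. VhaAC45RP, with HFD signals of 260 to 283 and RD signals of 144 to 174, and VhaM9.7-a show the widest gaps relative to their level; Vha100-4 and Vha13 overlap between diets.

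The a subunit decides where in the cell the pump sits, and 5 genes code for it. Vha100-1, the copy known for its role at synapses and in photoreceptor endosomes, had 1058, 1076 and 1181 in HFD, against 932, 799 and 886 in RD. All HFD arrays lay above all RD arrays, and the gene rose 1.27-fold (0.34 ± 0.075, limma, adjusted p = 0.0181). Without HFD array 2, HFD array 3 or RD array 3 it missed the threshold narrowly (limma, adjusted p = 0.0509, 0.0558 and 0.0563), and with median centring it was at 0.13 (limma, adjusted p = 0.230). Vha100-5 had 529, 550 and 590 in HFD, against 602, 619 and 636 in RD. It was the only tested V-ATPase gene whose HFD arrays all lay below its RD arrays, a pattern that 18.7% of tested probe sets showed, and it did not pass (-0.15 ± 0.066, limma, adjusted p = 0.137). With median centring or array weights Vha100-5 passed as lower, at -0.36 and -0.20.

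The other a subunit paralogues spread widely within HFD. Vha100-4, a copy of the midgut, had 76.3, 117 and 133 in HFD, against 81.9, 91.8 and 79.7 in RD. HFD array 1 lay below all RD arrays and the other HFD arrays above them, so the diets overlapped (0.33 ± 0.20, limma, adjusted p = 0.279). Without HFD array 1 or with array weights this gene passed, at 0.56 and 0.51. The array weights were 6.31 for HFD array 2 and 4.91 for RD array 3, against 0.40 to 0.45 for the others, so that weighted values rest mostly on 1 array per diet. Vha100-3 had 43.7, 51.9 and 32.9 in HFD, against 49.7, 53.5 and 47.2 in RD, and did not pass (-0.24 ± 0.18, limma, adjusted p = 0.361).

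Vha36-3, a D subunit paralogue, had 56.0, 77.7 and 70.7 in HFD, against 49.6, 43.6 and 41.2 in RD. It rose 1.501-fold without overlap (0.59 ± 0.16, limma, adjusted p = 0.0375). The call was lost with quantile normalization (0.39, limma, adjusted p = 0.119) and median centring (0.38, limma, adjusted p = 0.0855), and adjusted p was 0.0814, 0.104, 0.128 and 0.129 without HFD array 3, RD array 2, HFD array 2 and RD array 3. VhaM9.7-c, another e subunit paralogue, had 784 ± 25.1 in HFD and 827 ± 31.0 in RD, with overlap (-0.078 ± 0.058). VhaAC39-2 and VhaPPA1-2, paralogues of subunits d and c'', had 32.8 ± 5.34 and 29.5 ± 3.01 in HFD, against 28.4 ± 2.49 and 31.1 ± 3.80 in RD. These 2 genes sat at the filter level, with 3 and 2 of 6 signals below it, and neither passed.

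Each tested paralogue was then set against the broadly expressed subunit of the same position on the same array, as a log2 ratio, which does not move when a whole array is scaled. In each pair the paralogue had the lower signal, so a difference between arrays that depends on signal level does not cancel. There were 10 such pairs, the last of them, VhaAC45RP over VhaAC45, added after its values were seen. The ratio of a pair was compared between diets with an exact two-sided permutation test, which cannot go below p = 0.1 with 3 against 3 arrays. In 6 pairs the diets did not overlap, where 42.0% of single tested probe sets did not, and 4 of the 10 pairs share Vha100-2. Each of the 6 pairs had an exact permutation p = 0.1 and p = 0.167 adjusted over the 10 pairs, so no pair passed. Since 5 genes of these pairs passed on their own, 4 paralogues and VhaAC45, each with no overlap between diets, the count of 6 is a description.

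The ratio lay higher on HFD than on RD in 4 of the 6 pairs. It differed by 0.70 for Vha36-3 over Vha36-1, by 0.66 for VhaM9.7-a over VhaM9.7-b, by 0.58 for VhaAC45RP over VhaAC45 and by 0.25 for Vha100-1 over Vha100-2, on the log2 scale. With quantile normalization these 4 differences were 0.47, 0.53, 0.47 and 0.22. That of Vha100-4 over Vha100-2 went from 0.23 to 0.0025, and that of Vha100-3 over Vha100-2 from -0.34 to -0.56. The VhaM9.7 ratio was -3.99, -4.04 and -4.02 in HFD, against -4.70, -4.78 and -4.55 in RD, so that the gap between diets was wider than the spread within either. The ratio lay lower on HFD in the other pairs without overlap, with a difference of -0.25 for Vha100-5 over Vha100-2 and of -0.089 for VhaM9.7-c over VhaM9.7-b. Among the a subunits, 1 paralogue therefore lay higher and 1 lower relative to Vha100-2 on HFD without overlap. Vha100-4 and Vha100-2 are next to each other on chromosome 3R, with no gene starting between them, and their ratio overlapped between diets (exact permutation p = 0.4). VhaPPA1-2 and VhaPPA1-1, also near neighbours on 3R with 1 gene start between them, had a ratio that overlapped as well (exact permutation p = 0.9).

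**Figure D3:**
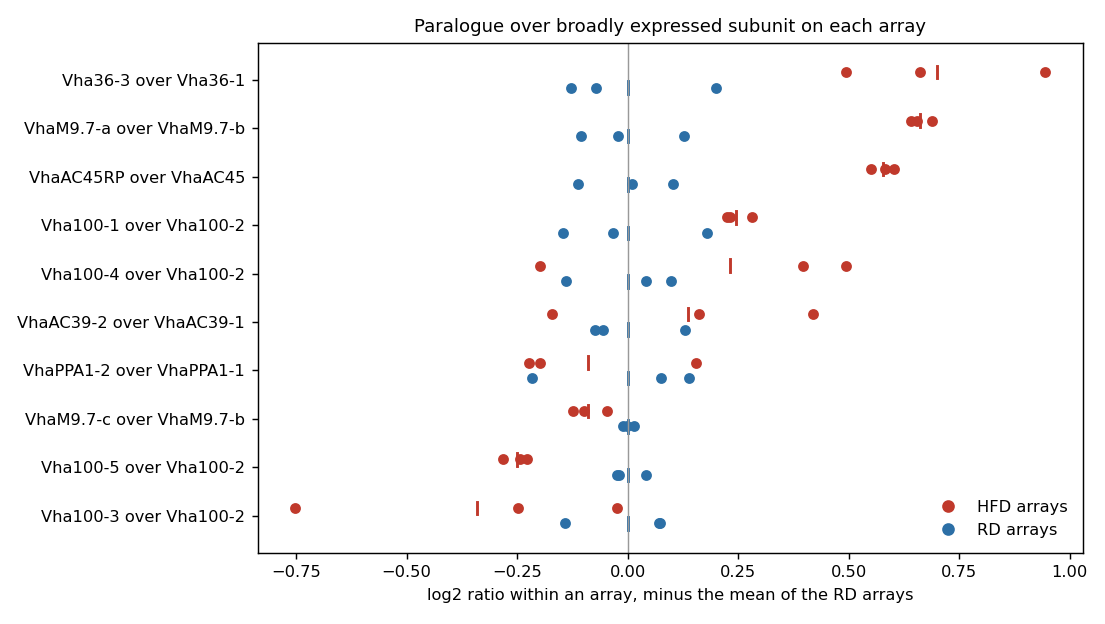
Log2 ratio of each paralogue over the broadly expressed subunit of its position within an array, less the mean of the RD arrays (x axis), for HFD arrays (red, upper row of a pair) and RD arrays (blue, lower row). Vertical ticks are group means; Vha36-3, VhaM9.7-a, VhaAC45RP and Vha100-1 shifted right by 0.25 to 0.70 with no overlap.

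Genes that work with the pump were read from other lists. By the adjusted rule 19.5% of all tested probe sets were called, 12.9% higher and 6.63% lower. Lists of 3 or 5 tested genes are too short to be set apart from these shares. Of 3 genes of V-ATPase assembly and regulation tested, none passed (limma), nor did any at an unadjusted p under 0.05. Mitf, the fly member of the MITF and TFEB family that activates V-ATPase and lysosome genes, had 58.7, 65.9 and 77.7 in HFD, against 65.3, 50.9 and 50.4 in RD (0.28 ± 0.16, limma, adjusted p = 0.255). Rbcn-3B, a subunit of the rabconnectin complex that assembles V1 on V0, was at 0.21 ± 0.17 (limma, adjusted p = 0.397). Of 15 lysosome genes tested, none rose and 1 fell, the lysosomal mannosidase LManII (-0.44 ± 0.10, limma, adjusted p = 0.0213), and the list median was 0.010. At an unadjusted p under 0.05 the transporter gene Cln7, named after its values were seen, was also higher (0.37, limma, adjusted p = 0.110). The Rag, Lamtor and TORC1 group senses amino acids at the lysosome together with the V-ATPase. Of 5 tested Rag and Lamtor genes none passed, and no gene of TORC1 itself was tested. Lamtor4 came nearest (0.17 ± 0.054, limma, adjusted p = 0.0674), followed by Lamtor3 at -0.090. The mitochondrial ATP synthase, the related rotary enzyme that makes ATP, had 0 of 13 tested genes called (limma) and a median of -0.038. At an unadjusted p under 0.05, 1 gene of the Lamtor group, Lamtor4, was higher, and 1 ATP synthase gene was higher (ATPsynGL, 0.60) and 1 lower (ATPsynF, -0.15), as 4003 of all 11261 probe sets passed.

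Markers of tissues that use particular paralogues were measured beside them. Of 13 neuron markers named on the array, 12 were tested and all 12 rose, with a median of 0.95. Their summed signal was 4486 to 4816 in HFD, against 2585 to 3143 in RD, and none of the 13 was at 0. The GABA receptor gene Rdl had 332, 276 and 319 in HFD, against 174, 106 and 118 in RD (1.24 ± 0.18, limma, adjusted p = 0.00415). The sodium channel gene para rose by 1.28, the potassium channel gene Sh by 1.13 and the active zone gene Rim by 0.99 on the log2 scale. VhaAC45RP and Vha100-1, which serve neurons, were thus higher on the same arrays as these markers, and the part of neuron RNA in their rise was not tested. Of 15 Malpighian tubule markers tested, 5 rose and none fell, with a median of -0.024, and their summed signal overlapped at 9109 to 10430 in HFD and 9537 to 10443 in RD. Of all tested probe sets, 12.9% were called higher and 6.63% lower. The largest called rises of tubule markers were those of the transcription factor genes ct (0.89) and tsh (0.63), the chloride channel gene ClC-a (0.48) and the antiporter gene Nha2 (0.46). Fold changes of 8 of the 15 tubule markers were negative, down to -0.50. Of 11 midgut markers tested, 2 rose and 4 fell, with summed signals of 27121 to 30927 in HFD and 35273 to 41857 in RD. The protease genes Jon25Bi (-3.41), epsilonTry (-0.86) and Jon65Ai (-0.71) fell, and pros, a transcription factor gene of enteroendocrine cells and neurons, rose (1.00). Of 4 testis markers tested none passed (limma), nor did any at an unadjusted p under 0.05, with summed signals over all 18 of 382 to 427 in HFD and 372 to 393 in RD, and 2 of the 18, dj and Mst87F, were at 0 on at least 1 array. The testis genes of lowest p were Mst77F (0.11) and Mst84Dc (0.036).

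**Figure D4:**
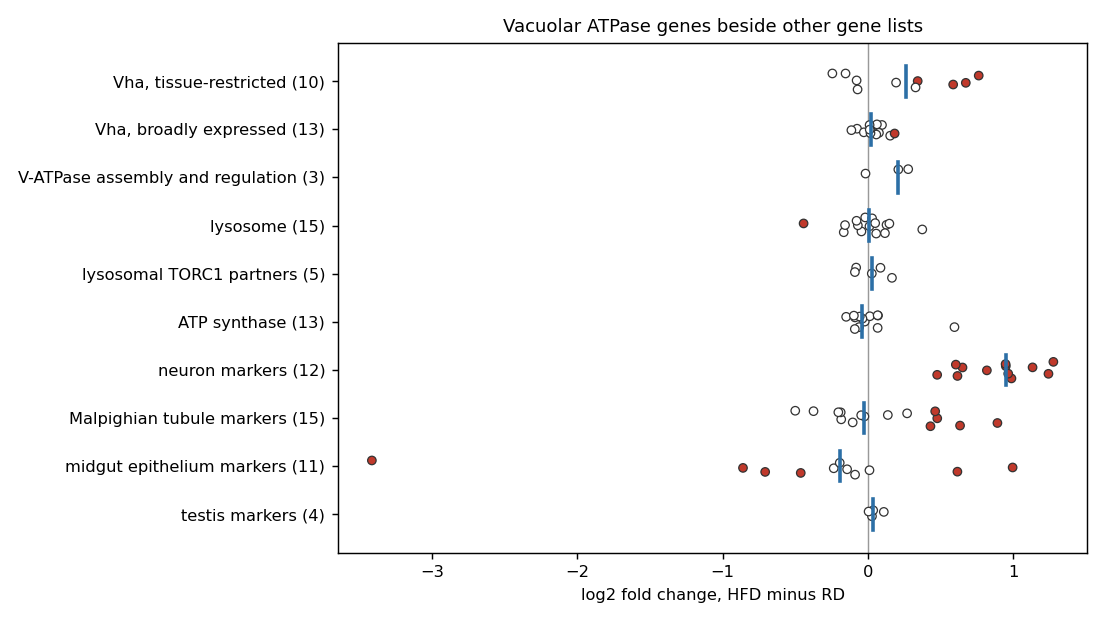
Log2 fold change (HFD minus RD, x axis) of each tested gene of the V-ATPase groups and of other lists, with the number tested in brackets; filled red points passed an adjusted p of 0.05, and blue ticks are medians. The neuron markers lie highest, with a median of 0.95, and the broadly expressed V-ATPase subunits lie around 0 at a median of 0.021.

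The scale of the arrays bears on these directions. The median signal over all probe sets was 60.7 to 63.8 on the HFD arrays and 52.8 to 55.3 on the RD arrays, and with each array centred on its median the tested probe sets had a median log2 fold change of -0.20. Of all calls, 66.0% were higher and 34.0% lower as deposited, 19.5% and 80.5% after centring, and 52.0% and 48.0% after quantile normalization. With median centring, 6 broadly expressed subunits and 2 paralogues were called lower and only VhaAC45RP and VhaM9.7-a higher, where 8.63% of all probe sets were called higher and 35.7% lower. With quantile normalization, 4 broadly expressed subunits and 3 paralogues were called higher and none lower, where 11.1% of all probe sets were called higher and 10.2% lower. With array weights, 9 members were called higher and 4 lower, where 31.4% and 23.1% of all probe sets were. Relative to the median of all tested probe sets, the median of the broadly expressed subunits lay at 0.012 as deposited, a distance that centring cannot change, and at 0.087 after quantile normalization. The 3'/5' signal ratio of the actin control, which is higher where RNA or its labelled copy is shorter, was 8.35 to 9.29 in HFD and 4.90 to 7.85 in RD, without overlap. That of GAPDH overlapped, at 2.25 to 2.51 in HFD and 1.93 to 2.40 in RD, and that of eIF-4a overlapped at 9.38 to 10.93 in HFD and 5.90 to 10.03 in RD. With such ratios of 3 control transcripts averaged on the log2 scale as a covariate, no V-ATPase gene passed. In that fit 1.89% of all probe sets were called higher and 0.471% lower. At an unadjusted p under 0.05 (limma), 3 paralogues and 0 broadly expressed subunits passed, all higher. The share of all probe sets at that unadjusted threshold was not taken with the covariate, so these counts are a description. VhaAC45RP was then at 0.64, beside 0.76 without the covariate, and VhaM9.7-a at 0.62, beside 0.67. The ratios differ in part with diet, so the covariate and diet cannot be fully told apart. The mean signal of the bioB control probe sets was 417 to 596 on the HFD arrays and 272 to 299 on the RD arrays, without overlap. Whether that difference between the arrays bears on the calls was not tested.

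**Figure D5:**
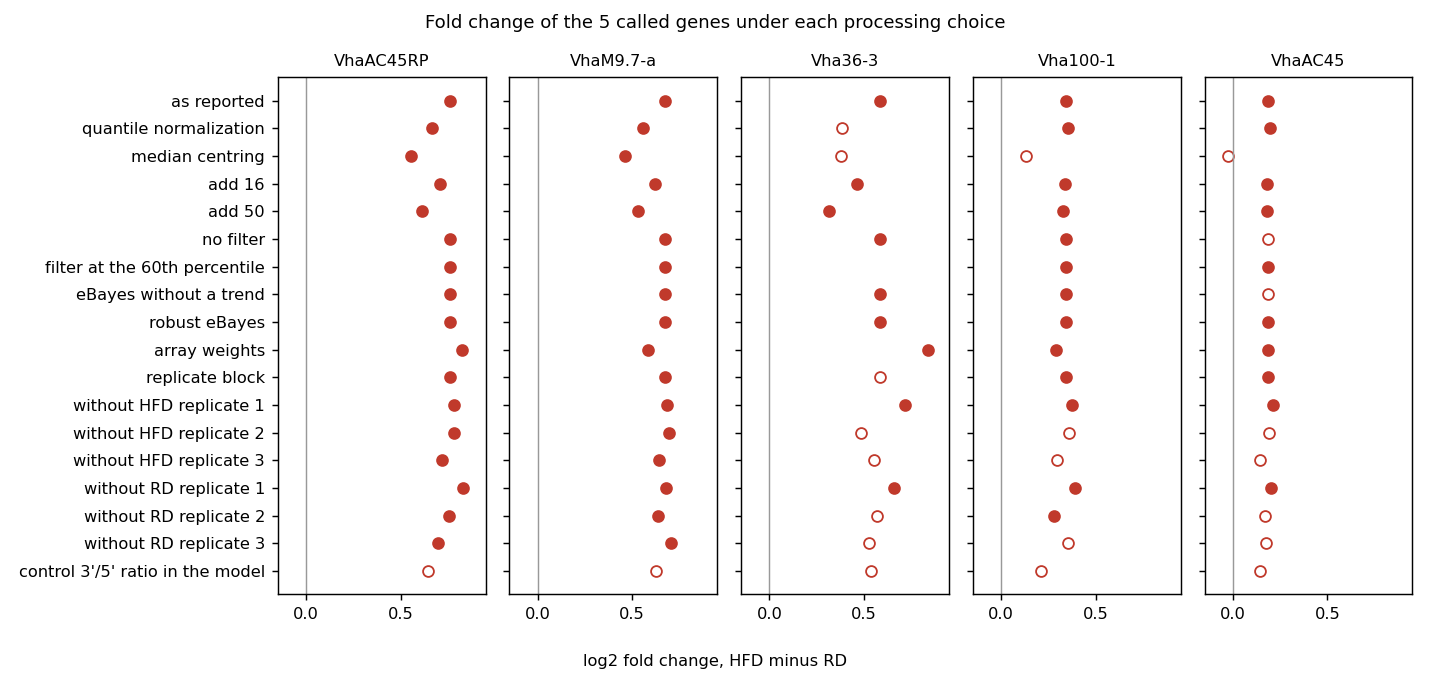
Log2 fold change (HFD minus RD, x axis) of the 5 called V-ATPase genes under each processing choice (rows); filled points passed an adjusted p of 0.05 and open points did not. VhaAC45RP and VhaM9.7-a are filled in 17 of 18 rows, and VhaAC45 crosses 0 with median centring.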

How the data were processed

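The authors deposited linear intensity values per probe set for 6 arrays, made with MAS5, per the submitters' processing notes; its version and scaling are not given in the sources used here. No column was of another sample. The 183 control probe sets were left out, 1 was added before log2, and 11261 of 18769 probe sets above the 40th percentile of mean log2 signal were tested two-sided in R 4.3.3 by limma 3.58.1, whose eBayes step used an intensity trend; p-values were adjusted over all of them (Benjamini-Hochberg). No further normalization or detection call was used. Intervals are those of the moderated fit. The code was tested on simulated data. Members and lists were chosen with earlier results of these data known.

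Gene names came from the array's annotation: 13647 probe sets had 1 symbol, 402 several and 4720 none here, and all 31 members matched the Release 6 table by gene ID. Every member is named; from each other list, the rule took up to 4 called genes of largest change, or the 2 of lowest p where none was called. ATP6AP2 was named as an accessory subunit, and dj and Mst87F after their values were seen. Lists matched symbols or unambiguous synonyms. Same-numbered arrays of the diets had deviations correlated at 0.072, 0.10 and 0.027, so the numbers were not taken as pairs. Figures used Python 3.11.15 and matplotlib 3.10.9.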

Additional observations from a re-analysis of the deposited data

How the results depend on the processing

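Across the alternatives, V-ATPase genes called higher numbered 5 as reported, 2 with median centring, 9 with array weights (weights that did not fully converge), 0 with the 3'/5' ratio of controls as a covariate, and 2 to 6 with 1 array left out. Genes called lower numbered 0, but 8 with median centring and 4 with array weights. Calls over all probe sets, 2196 as reported, numbered 4995 with median centring, 1361 with the filter at the 60th percentile, 6129 with array weights, 266 with the 3'/5' ratio, and 1008 to 2707 with 1 array left out.

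With the replicate number as a block, 4 V-ATPase genes were higher and none lower, of 2560 calls, and Vha36-3 lost its call (limma, adjusted p = 0.0532). With median centring the sign turned for Vha100-2 (-0.11), Vha16-1 (-0.15), Vha26 (-0.13), Vha44 (-0.056), Vha55 (-0.19), VhaAC39-1 (-0.15), VhaAC39-2 (-0.015), VhaAC45 (-0.025), VhaM9.7-b (-0.20), VhaPPA1-1 (-0.19) and VhaSFD (-0.20). It also turned for Vha13 with quantile normalization (0.050), Vha100-3 (0.064) and VhaPPA1-1 (-0.0045) with array weights, Vha55 (-0.097) and VhaPPA1-2 (0.075) with the 3'/5' ratio, and Vha16-1 on its other probe set (-0.049). With 1 array left out it turned for Vha55 (-0.018 to 0.073), VhaM9.7-b (-0.022 to 0.034), VhaPPA1-1 (-0.035 to 0.067) and VhaSFD (-0.0086 to 0.028). Other than VhaAC45, none of these genes was called as reported. The VhaAC39-2 over VhaAC39-1 difference was -0.050 with quantile normalization and -0.0048 to 0.29 with 1 array left out. Values and calls were only compared between settings, and what caused a change of sign or call was not tested. Dim signals limit the 8 untested paralogues.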
